A study of Homo sapiens with 4 samples.

Results

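The high-scoring KO-only initiation regions were 14810 of the 159667 regions of enriched nascent strands listed for RepID knockout (KO) cells, or 9.28% of that list. Each lay on 1 of the 22 autosomes, carried a score of 187 or more, spanned less than 10 kb, and was separated from the nearest region of the list from cells with intact RepID (WT) by more than 2 kb and by no more than 100 kb. The score of 187 is the upper quartile of all KO scores. Because the regions were chosen by their KO score, their width and their gap to the WT list, those quantities are given below as a description without a test. The RepID list and the RepID status of WT origins played no part in the choice.

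Replication of human chromosomes begins at many origins, and only some of them are used in a given cell cycle. Nascent-strand sequencing (NS-Seq) collects short newly made strands, removes broken genomic DNA with an exonuclease that spares strands with an RNA primer, and reads their positions as sites where replication began. RepID is a chromatin protein known to bind a subset of human origins and to interact with the CRL4 ubiquitin ligase. Origins left silent in one condition can be used in another, and such flexible sites are often called dormant origins.

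Nascent strands came from asynchronous, otherwise untreated HCT116 cells, a colorectal carcinoma line, either wild type (WT) or carrying a CRISPR-Cas9 disruption of RepID after puromycin selection (KO). Genomic DNA of HCT116 served the authors as the control when both nascent-strand lists were called and was not analysed here. RepID binding was measured in a different line, U2OS osteosarcoma cells, as ChIP-Seq of RepID with a FLAG tag precipitated by a FLAG antibody. A WT origin was called RepID-bound when a U2OS RepID region lay within 2 kb of it, so binding at these sites in HCT116 was not measured. Each of the 3 lists came from 1 library, no read totals came with them, and the depth of each library is therefore unknown. A region present in the KO list alone can reflect depth or calling as well as initiation, which cannot be told apart here. Intervals are 95% intervals for counting error only. They treat regions as independent, which neighbouring regions are not, so the intervals are too narrow. Without replicates no test between WT and KO cells was possible.

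On the autosomes, 100860 of 159441 KO regions lay more than 2 kb from any WT region (63.3%). Of the 36241 autosomal KO regions with the score and width required here, 14810 had a gap within the stated limits (40.9%), 18358 lay within 2 kb of a WT region, and 3073 lay more than 100 kb away. Another 816 regions met the score and gap limits but were 10 kb or wider. For comparison, 64075 KO regions lay in the same range of gaps with a score below the minimum and are called lower-scoring KO-only regions. The lists held 77492 WT origins and 23897 RepID regions on the autosomes. The KO list was the longest, with 159441 autosomal regions covering 557 Mb against 301 Mb for WT origins. A figure legend of the study counts fewer nascent-strand peaks in KO than in WT cells, the reverse of these lists. The part of the longer KO list in the number of KO-only regions was not tested.

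The high-scoring KO-only regions were broad. Their median width was 5400 bp, with the 5th and 95th percentiles at 3600 and 8600 bp and extremes of 600 and 9800 bp. Together they covered 83.1 Mb. Lower-scoring KO-only regions had a median width of 2400 bp and covered 155 Mb in all. High-scoring KO regions at WT origins were about as wide as the KO-only ones, with a median of 5600 bp.

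The score followed width closely. Across all autosomal KO regions, Spearman's rho between score and width was 0.94, and within the selected regions it was 0.76, both given as descriptions across regions of 1 library. Of the KO-only regions 3 to 4 kb wide, 7.41% reached the score minimum. That share was 44.9% at 4 to 5 kb, 90.6% at 5 to 6 kb, 99.8% at 6 to 7 kb and 100% from 7 to 10 kb. The minimum on score thus largely separated wide from narrow KO-only regions. Per kb of width the selected regions did not score higher than the rest, with a median of 45.2 per kb against 47.2 per kb for lower-scoring KO-only regions and 46.0 per kb for high-scoring KO regions at WT origins.

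**Figure D1:**
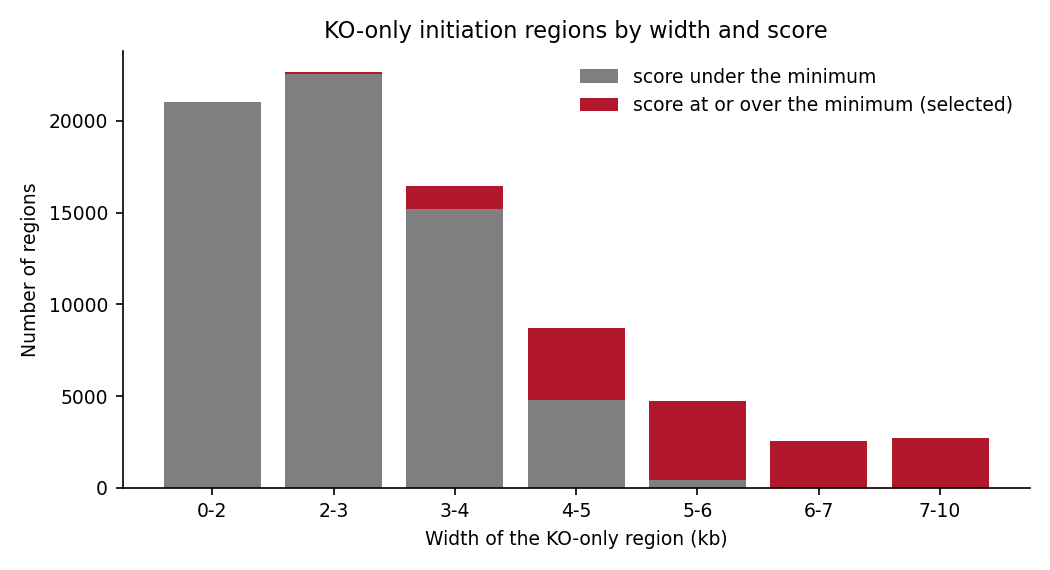
Number of KO-only regions (vertical axis) in each class of width in kb (horizontal axis), split into those with a score below 187 (grey) and those at 187 or more (red). Regions under 3 kb were nearly all below the minimum, and all 2716 regions from 7 to 10 kb were above it.

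Scores of the selected regions had a median of 236, and the middle of the distribution lay between 207 and 288. Most of them, 78.8%, scored under 300, and 131 scored over 500. They accounted for 14.4% of the summed score of the autosomal KO list. At the lower edge, 206 regions scored exactly 187 and 217 otherwise eligible regions scored 186, with a median width of 4200 bp in both. At the upper edge of width, 73 regions were 9800 bp wide and 73 eligible but for width were 10000 bp wide. At the gap limits there were 150 regions at 2200 bp and 173 at 2000 bp, and 13 at 100000 bp and 7 at 100200 bp.

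The highest score belonged to a region on chromosome 1 at 121478401-121485600 (hg19 coordinates, as for all positions here), with 43090, or 5985 per kb. It bordered a stretch of at least 1 Mb that held no region of any list, and a RepID region with a MACS score of 3100, where the median of that list was 199, lay inside it. The nearest WT region was 48000 bp away, scored 34 and was not RepID-bound. Next came 2 regions on chromosome 9. The region at 68690201-68699400 scored 1083, and the one at 42818401-42819200 scored 1030 over only 800 bp. On chromosome 17 the region at 25283401-25292800 scored 951, overlapped a RepID region of score 3100 and lay 9600 bp from a stretch without any region. These extremes were few. Only 31 selected regions exceeded 100 per kb, and 130 of the 14810 (0.878%) lay within 1 Mb of 1 of the 19 stretches of 1 Mb or more without a region of any list.

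Among the 10 highest-scoring regions, 3 had a RepID-bound nearest WT origin. Those at 120623801-120631400 and 145188801-145196400 on chromosome 1 scored 845 and 815. Their nearest WT origins, 9600 and 10800 bp away, scored 999 and 1215 in the WT list and were also overlapped by KO regions. The third, on chromosome 12 at 133841401-133842000, scored 730 within 600 bp. The others were on chromosome 4 at 190197801-190203800 with a score of 773, on chromosome 10 at 111527801-111537000 with 735, and on chromosome 9 at 141121801-141124200 with 717.

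Selected regions with RepID in or beside them were rare. A RepID region overlapped 72 of them (0.486%, interval 0.381 to 0.612), and 122 had one within 2 kb (0.824%, interval 0.685 to 0.983). Overlap was found for 0.328% (0.285 to 0.375) of lower-scoring KO-only regions. Those are narrower, and the part of width in this difference was not tested. The share within 2 kb was 0.754% among lower-scoring KO-only regions, a difference of 0.070 percentage points whose interval, -0.081 to 0.241, included 0. After the regions on chromosomes 1 and 17 described above, the highest-scoring with RepID inside were 2 regions on chromosome 2, at 132766801-132772600 (score 499) and 230043801-230048400 (score 442), and 1 on chromosome 16 at 80034001-80043000 (score 453). Within 10 kb the shares were 7.04% for selected and 7.90% for lower-scoring regions, a difference of -0.85 percentage points (-1.31 to -0.382). It was confined to regions close to a WT origin, at -3.22 for gaps of 2 to 5 kb and -4.23 for 5 to 10 kb. For gaps of 10 to 20, 20 to 50 and 50 to 100 kb its interval included 0. High-scoring KO regions at WT origins had RepID within 2 kb in 15.7%. Since those regions lie at WT origins and RepID-bound origins are defined by the same distance, this larger share follows in part from where they lie.

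Next, the selected regions were placed relative to WT origins with and without RepID. The gap to the nearest WT origin had a median of 19600 bp, with quartiles at 8400 and 42400 bp. The nearest origin was RepID-bound for 2820 of 14810 regions, 19.0% (18.4 to 19.7). RepID-bound origins made up 18.8% of all autosomal WT origins, and the difference of 0.29 percentage points had an interval from -0.397 to 0.982. Their share of sequence was larger, as 23.8% of the autosomal sequence 2 to 100 kb from a WT origin was nearest to a bound one. For lower-scoring KO-only regions the share with a bound nearest origin was 23.2%. The share of the high-scoring regions minus that of the lower-scoring ones was -4.13 percentage points (-4.84 to -3.42). The same direction appeared on 20 of the 22 autosomes. For high-scoring KO regions at WT origins the share was 17.9%, lower than in the selected regions by 1.10 percentage points (0.264 to 1.95), and this difference turned to -1.82 when origins with RepID within 5 kb were counted as bound.

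The deficit was present at every distance. Between 2 and 5 kb from a WT origin, 16.3% of selected regions had a bound origin nearest, against 20.1% of lower-scoring regions. At 20 to 50 kb, where 4379 of the selected regions lay, the shares were 19.7% and 25.2%. At 50 to 100 kb they were 21.3% and 24.1%. Differences in the 5 distance classes ran from -5.55 to -2.72 percentage points, and each interval lay below 0.

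Measured to each kind of origin separately, the median distance of a selected region was 112 kb to the nearest RepID-bound origin and 24.2 kb to the nearest origin without RepID. The nearest bound origin lay within 10 kb for 6.08% of selected regions and beyond 100 kb for 53.1%. For origins without RepID the corresponding shares were 25.6% and 5.59%. Bound origins are fewer, so these distances differ whatever the selected regions do, and the comparison was therefore repeated per Mb of sequence.

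Of the autosomal sequence 2 to 100 kb from a WT origin, 389 Mb was nearest to a RepID-bound origin and 1245 Mb to an origin without RepID. The former held 7.24 selected regions per Mb and the latter 9.63, a ratio of 0.75 (0.722 to 0.784). Lower-scoring KO-only regions were spread more evenly, with 38.1 and 39.5 per Mb, a ratio of 0.96 (0.947 to 0.983). Across the 5 distance classes the ratio for selected regions ran from 0.70 at 20 to 50 kb to 0.85 at 50 to 100 kb. With all RepID-bound origins pooled, the sequence nearest to them was thus poorer in broad, high-scoring KO-only regions. The proportion was about the same from 2 kb out to 50 kb.

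This deficit was not uniform over WT origins. RepID-bound WT origins were stronger in the WT list, with a median score of 299.5 against 105 for the others, so the ratio was taken again within quartiles of the WT score of the nearest origin. In the lowest quartile it was 0.67 (0.600 to 0.745), in the next 0.75 (0.689 to 0.822) and in the one above 0.73 (0.677 to 0.792). Among origins of the top quartile, with WT scores over 297, the direction turned, and sequence near bound origins held 8.27 selected regions per Mb against 7.15 near the others, a ratio of 1.16 (1.04 to 1.28). That quartile held 7291 of the 14534 RepID-bound origins and 12058 of the 62958 others. It also held 119 of the 389 Mb nearest to bound origins. In that quartile lower-scoring KO-only regions had nearly the same ratio, 1.14. With the rates of the other origins weighted to the quartiles of the bound ones, the ratio over all was 0.83.

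**Figure D2:**
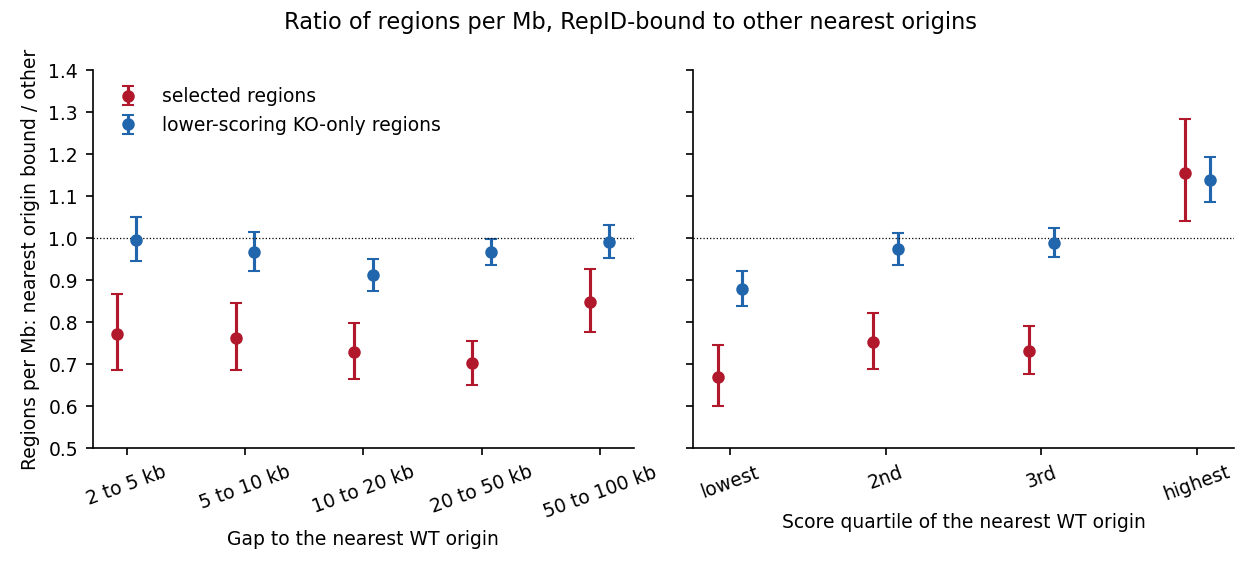
Ratio of regions per Mb of sequence nearest to RepID-bound WT origins to regions per Mb nearest to other WT origins (vertical axis, which does not start at 0), by gap to the origin (left) and by quartile of the origin's WT score (right), for selected regions (red) and lower-scoring KO-only regions (blue). Bars are 95% intervals for counting error, and the dotted line marks a ratio of 1. The red points lie below the blue ones everywhere except beside the WT origins of the highest quartile, where they stand at 1.16 and 1.14.

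The stretches between neighbouring WT origins gave the same picture from both sides. The autosomes held 77470 such WT-free gaps with a median length of 6 kb, and 8709 of them (11.2%) contained at least 1 selected region. The gaps that did were long, with a median of 75.4 kb. A single selected region was present in 5556 of them, and 5 or more in 368. Occupancy rose with length from 0.123% at 4 to 10 kb, where the rule on the gap leaves little room, to 25.3% at 20 to 50 kb, 44.3% at 50 to 100 kb and 66.6% at 200 to 500 kb. In gaps over 500 kb it was 58.8%. The limit of 100 kb to a WT origin leaves out the middle of gaps over about 200 kb, so occupancy there is partly set by the rule.

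At a given length, occupancy fell with the number of flanking origins that were RepID-bound. Of gaps 50 to 100 kb long, 49.0% held a selected region when neither flank was bound, 39.8% when 1 flank was, and 33.7% when both were. For gaps of 100 to 200 kb the shares were 65.1%, 58.2% and 47.9%, and for those of 20 to 50 kb they were 27.3%, 21.7% and 20.8%. The intervals of 0 and of 2 bound flanks did not overlap in any of these 3 classes, while those of 1 and 2 bound flanks overlapped below 100 kb. Lower-scoring KO-only regions were present in 67.7%, 67.2% and 66.9% of the gaps of 20 to 50 kb, and in about 90% or more of the longer ones, where a gradient in occupancy could hardly show. Per Mb of gap at 50 to 100 kb, selected regions numbered 11.4, 8.36 and 6.56 with 0, 1 and 2 bound flanks, and lower-scoring ones 40.5, 39.1 and 36.7, which is a decline in the same direction and smaller in proportion.

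The gradient differed with WT score here as well. Where neither flank was in the top quartile of WT score, the shares at 100 to 200 kb were 65.8%, 57.7% and 40.5%. Where 1 flank or both were, they were 58.5%, 59.1% and 57.0%. In those gaps at 50 to 100 kb the shares were 39.1%, 44.0% and 32.1%, lowest with 2 bound flanks, and at 20 to 50 kb they were 21.0%, 23.6% and 24.0%. The intervals of 0 and of 2 bound flanks overlapped at all 3 lengths.

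**Figure D3:**
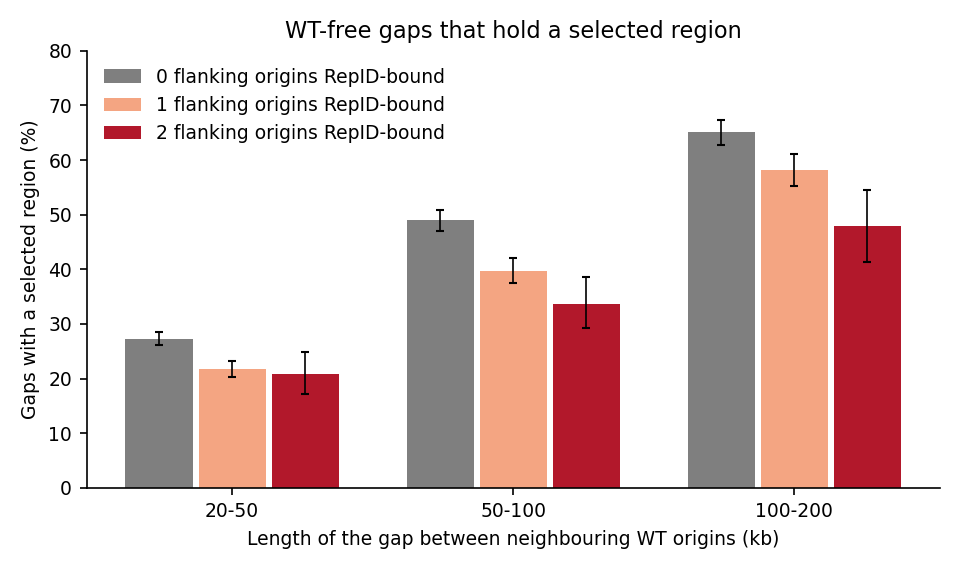
Share of WT-free gaps that held at least 1 selected region (vertical axis, %) by length of the gap in kb (horizontal axis) and by how many of the 2 flanking WT origins were RepID-bound. Error bars are exact binomial 95% intervals. At 100 to 200 kb the share fell from 65.1% with 0 bound flanks to 47.9% with 2.

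Seen from the origins, 6.36% of RepID-bound WT origins and 7.30% of the others had a selected region within 10 kb, a difference of -0.94 percentage points (-1.38 to -0.489). Within 20 kb of an origin the shares were 12.3% and 15.0%. The difference at 10 kb turned to 1.38 when the other origins were weighted to the score deciles of the bound ones, so its direction depended on the WT score.

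The WT origins were then split by whether a KO region overlapped them. Of the WT origins not bound by RepID, 8.55% of those overlapped by a KO region had a selected region within 10 kb, against 5.20% of those without, a difference of 3.35 percentage points (2.95 to 3.75). For RepID-bound origins the shares were 6.68% and 5.94%, and the difference of 0.74 had an interval from -0.060 to 1.53. Over all autosomes, selected regions were thus not detectably more common beside bound origins that were missing from the KO list than beside bound origins that were present in it. Among WT origins missing from the KO list, bound ones had a selected region within 10 kb slightly more often than the others, by 0.74 percentage points (0.111 to 1.41), but at 5, 20 and 50 kb the interval of this difference included 0. Among those present, the difference at 10 kb was -1.87 (-2.46 to -1.25), and it was also negative, with the interval below 0, at 5, 20 and 50 kb. Neither was weighted for WT score. The difference between these differences was not tested.

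The nearest WT origin of a selected region was overlapped by a KO region in 66.7% of cases, against 57.9% for lower-scoring KO-only regions. When that origin was bound, the share for selected regions was 53.2%, and when it was not bound, 69.9%. Over all WT origins the shares were 56.7% for bound and 62.7% for other origins. In all, 9654 different WT origins were the nearest of a selected region. These were narrow and low in score compared with all WT origins, with a median width of 1800 against 2400 bp and a median score of 83 against 123.

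Spacing along the chromosomes was wide. The gap from a selected region to the next had a median of 60.4 kb, with quartiles at 19.2 and 178 kb, and 8.72% of gaps exceeded 500 kb. The next selected region lay within 10 kb in 16.0%. Lower-scoring KO-only regions, being more numerous, had a median gap of 16.8 kb, and high-scoring KO regions at WT origins one of 36.4 kb.

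Other KO regions were close by. The nearest KO region of any kind was a median of 3000 bp away, and for 40.9% of selected regions it was within 2 kb, against 32.7% of lower-scoring ones. Of the KO regions next to a selected region on either side, 56.7% were lower-scoring KO-only regions, 21.3% lay at WT origins and 18.4% were themselves selected. Those kinds form 40.2%, 36.7% and 9.29% of the autosomal list. The rule keeps selected regions away from WT origins, so the shares among neighbours follow in part from the choice. Most selected regions, 9996 or 67.5%, had no selected neighbour in the KO list, and the rest formed 2091 runs of 2 or more. Only 523 stood in runs of 4 or more. The longest run had 10 members in 123.2 kb on chromosome 8 at 128092201-128215400. Runs of 7 on the same chromosome, at 79472601-79527200 and 99214401-99275400, came next.

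The 3 WT-free gaps with the most selected regions also lay on chromosome 8. One of 244.8 kb at 141650601-141895400 held 13, and those of 193.2 kb at 94407201-94600400 and of 166.8 kb at 128051401-128218200 held 12 each. The first had 1 RepID-bound flank and the other two had 0. All 6 flanking origins were overlapped by KO regions.

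**Figure D4:**
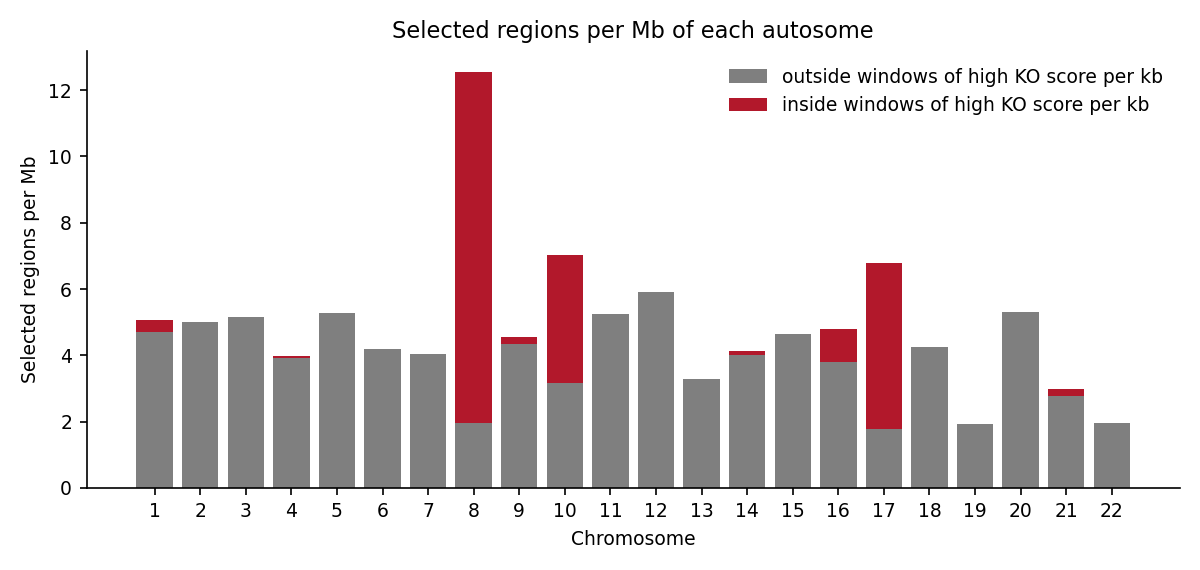
Selected regions per Mb (vertical axis) on each autosome (horizontal axis), with the part inside 5-Mb windows of at least 20 KO regions whose median KO score per kb was 50 or more in red and the remainder in grey. Chromosome 8 stands at 12.6 per Mb, chromosomes 10 and 17 at 7.04 and 6.79, and most of each of these bars is red.

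The chromosomes differed sharply. Chromosome 8 carried 1838 selected regions, 12.4% of the total and 12.6 per Mb, where the autosomes together had 5.14 per Mb. Chromosomes 10 and 17 followed with 7.04 and 6.79 per Mb, and no other exceeded 5.91. Chromosomes 19 and 22 had the fewest, with 1.93 and 1.97 per Mb, or 114 and 101 regions. Lower-scoring KO-only regions were also fewest per Mb on these chromosomes, at 12.7 and 10.6. Relative to WT origins the range was wider still, from 0.028 selected regions per origin on chromosome 19 to 0.50 on chromosome 8. Chromosome 19 had the most WT origins per Mb, 68.6, which by itself lowers its value per origin. Width barely varied, with medians from 5200 to 5600 bp on every autosome, whereas the median score was 268 on chromosomes 8 and 17 and 219 on chromosome 21. The top region of chromosome 8, at 104011201-104020200, scored 662 and lay 12800 bp from a RepID-bound WT origin of score 41 that no KO region overlapped. That of chromosome 19, at 24160401-24170000, scored 424, and its nearest WT origin, 12600 bp away, was not bound.

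Most of the excess on these chromosomes lay in long blocks. In windows of 5 Mb, 43 of the 563 with at least 20 KO regions under 10 kb wide had a median KO score per kb of 50 or more, and these held 2723 selected regions (18.4%) but 6.03% of lower-scoring KO-only regions and 9.41% of WT origins. Another 3 windows at 50 or more had fewer KO regions and were not counted with them. The longest block ran over 65 to 150 Mb of chromosome 8, to its end, with 1551 selected regions or 18.2 per Mb, against 287 on the rest of that chromosome. Others covered 100 to 135 Mb of chromosome 10 with 526 regions, 45 to 80 Mb of chromosome 17 with 407, and 80 to 95 Mb of chromosome 16 with 88. These windows were defined by KO score per kb, which is part of the score that chose the regions, so the higher density in them is a description and not a test.

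By the choice of windows, the KO score per kb was higher inside the blocks than on the rest of each chromosome. On chromosome 8 its median was 45.4 outside the block and 55 inside, on chromosome 10 it was 45.3 and 54.6, and on chromosome 17 it was 46.6 and 54.2. The WT list played no part in that choice and was not higher inside these 3 blocks. It stood at 56.6 and 55 per kb on chromosome 8, 57.1 and 55.7 on chromosome 10, and 63.8 and 63.2 on chromosome 17. In the shorter block of chromosome 16 both lists were higher inside, with 52.7 against 45.6 per kb for KO regions and 63 against 57 for WT regions. WT scores per kb were also higher inside the small blocks of chromosomes 2, 4, 14 and 21, at 140 to 150 Mb of chromosome 1 and at 65 to 70 Mb of chromosome 9, and lower inside those at 120 to 125 Mb of chromosome 1 and 40 to 45 Mb of chromosome 9. Of the KO-only regions under 10 kb within 100 kb of a WT origin, 41.4% (40.2 to 42.6) reached the score minimum inside the windows and 16.7% (16.4 to 17.0) elsewhere. Selected regions inside scored higher, with a median of 282 against 230, and were no wider, at 5200 against 5400 bp. The higher share and the higher score also follow in part from the choice of windows by KO score per kb. HCT116 is a near-diploid line known for extra copies of parts of the long arms of chromosomes 8, 10 and 17. Copy number was not measured in these files, and its part in the higher KO score per kb was not tested.

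**Figure D5:**
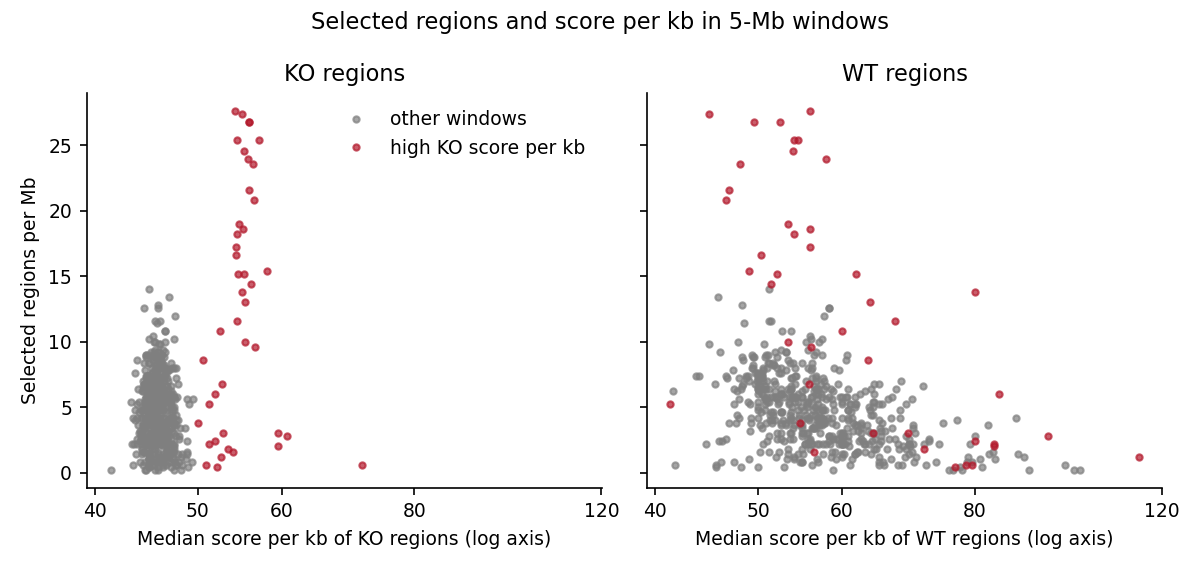
Selected regions per Mb (vertical axis, linear) in each 5-Mb window with at least 20 KO regions. The horizontal axes, on a log scale, show the median score per kb of its KO regions (left) and of its WT regions (right). The 43 windows of a median KO score per kb of 50 or more are in red, so that the border between the colours on the left is the limit itself. Red windows reach 27.6 selected regions per Mb and the others 14.0, and by WT score the colours mix.

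Most comparisons with RepID kept their direction without these windows. Outside them, 6.32 selected regions per Mb lay nearest to bound origins and 8.48 nearest to others, a ratio of 0.75 (0.712 to 0.780). Inside them the densities were 21.2 and 24.2, a ratio of 0.88 (0.796 to 0.964). By distance, the ratio inside was 1.01 at 10 to 20 kb, and its interval lay below 1 only at 5 to 10 kb. The share with a bound nearest origin was 19.1% outside and 18.9% inside, and the differences from the lower-scoring KO-only regions of the same windows were -4.18 and -2.95 percentage points. The comparison with high-scoring KO regions at WT origins did change, with a difference in that share of 3.28 percentage points (2.37 to 4.19) outside and of -9.12 (-11.2 to -6.97) inside. The gradient with bound flanks held outside as well, with 47.1%, 37.2% and 31.8% of gaps of 50 to 100 kb occupied. Inside the windows, bound origins present in the KO list had a selected region within 50 kb less often than the 216 missing from it. The difference was -7.35 percentage points (-14.5 to -0.200), against -0.23 (-1.72 to 1.26) outside. Among missing origins inside, bound ones exceeded the others by 8.15 at 20 kb (2.02 to 14.9) and 14.6 at 50 kb (7.36 to 21.9). Inside at 5 and 10 kb the intervals of both differences included 0, as did that of the first at 20 kb. Spacing did change, with a median gap to the next selected region of 75.8 kb outside and 23 kb inside. Across the 22 autosomes, the density of selected regions went with that of lower-scoring ones (Pearson's r 0.54, Spearman's rho 0.56) and hardly with that of WT origins (r -0.12, rho 0.23). Without chromosomes 8, 10 and 17 these were 0.88 and 0.74, and -0.36 and 0.11, all given as descriptions over chromosomes of 1 KO library.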

How the data were processed

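For each library the authors deposited 1 list of enriched regions that gives positions and a score per region. The submitters' processing notes list hg19, MACS and SICER without roles. Per the study's methods, MACS called the RepID regions against genomic input. The programme used for nascent strands of HCT116 cells and the meaning of their deposited score are not given in the sources used here, so scores were compared within a list only. Both nascent-strand lists lie on a 200 bp grid.

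All other values were computed with Python 3.11.15, numpy 2.4.6, pandas 2.3.3, SciPy 1.17.1 and matplotlib 3.10.9, with gap functions tested on simulated data against bedtools 2.31.1. The gap between regions is the number of bases between their edges, and overlap means at least 1 shared base. Each point between neighbouring WT regions was assigned to the nearer one to obtain Mb per kind of origin. Shares have exact Clopper-Pearson intervals, differences Newcombe intervals, and ratios of densities Poisson intervals on the log scale. No filter on depth was possible because read totals are unknown.

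The selected regions, comparison sets and limits were chosen with earlier results of these data known. Regions named are the 10 of highest score, the top 5 with RepID within 2 kb, the top 5 with a bound nearest origin, the 3 WT-free gaps with most regions, and the top region of the densest and sparsest autosome, not all of which are printed. The longest runs were named after their values were seen, as were the 5-Mb windows. Alternatives changed the definition of bound, the RepID score, the score, width and gap limits, merging and chromosome choice. Sequence and gene annotation of the regions were not analysed here.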

Additional observations from a re-analysis of the deposited data

How the results depend on the processing

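Of 93 recomputed values under the alternatives, 54 stayed within the interval or factor set for them, 37 moved and 2 reversed. The number of regions was 25698 at a score minimum of 150, 3134 at 300 and 5257 with widths under 5 kb. The share with a bound nearest origin was 18.4% with bound taken as an overlap, 20.2% at 5 kb, 13.3% with RepID regions at or above the median score only, 20.03% and 18.1% at score minimums of 150 and 300, 20.1% under 5 kb of width and 19.7% without an upper gap limit. Its difference from lower-scoring regions stayed negative in all 14 alternatives, and moved to -3.24 with stronger RepID regions, -3.11 under 5 kb and -3.37 without the upper limit. The difference from high-scoring KO regions at WT origins was 1.10 as defined, reversed to -1.82 with bound taken at 5 kb and was 3.28 outside the windows of high KO score. RepID within 10 kb was found for 7.04% as defined, 4.15% with stronger RepID regions, 4.78% with gaps over 5 kb, 5.97% without an upper limit and 0.82% within 2 kb.

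The difference in WT origins with a selected region within 10 kb was -2.04 with bound at 5 kb, -0.33 at a minimum of 300, -0.27 under 5 kb, where the interval included 0, -0.34 with gaps over 5 kb, and reversed to 1.38 with score-weighted origins. The median gap to the next region was 36.6 kb at a minimum of 150, 199.8 at 300, 213.4 under 5 kb, 54.2 without a width limit, 68.4 with gaps over 5 kb, 58.2 without an upper limit, 71.6 after merging, 68.8 without chromosome 8, 65.9 between centres and 75.8 outside the windows. The ratio of densities was below 1 in all 14 alternatives, all chosen after seeing the data, and was 0.80 at 150, 0.71 at 300, 0.80 under 5 kb, 0.80 without an upper limit and 0.83 with score-weighted origins. The cause of each shift was not tested. No paired analysis was possible because each list came from 1 library. Unknown depth limits every statement on regions missing from the WT list, and RepID binding was read in another cell line.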
